A study of Mus musculus with 2 samples.

Results

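The DNA replication machinery genes are 46 named mouse genes whose proteins license, start and carry out the copying of the genome. They were taken from a list by symbol and by function, and no measured value entered the rule. Earlier results of these data were known when the genes were chosen. They come out of 21535 protein-coding genes that could be placed with a strand on chromosomes 1 to 19, X and Y. The mark measured at them was trimethylation of histone H3 at lysine 4 (H3K4me3), by chromatin immunoprecipitation and sequencing (ChIP-seq). The cells were MEL, an immortalized mouse erythroleukaemia line of transformed red cell precursors, exposed to 2% dimethyl sulphoxide (DMSO) for 5 days. There were 2 samples, biological replicates 1 and 2 of this single group, and both had the same treatment. The age and sex behind the line are not recorded in the labels. Untreated cells were not analysed here, so nothing below describes a change with DMSO. The files hold called peaks and no read counts, so the depth of each library is unknown.

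Replication is prepared in the G1 phase, when the origin recognition complex (ORC) sits on DNA and, with CDC6 and CDT1, loads the ring-shaped MCM2-7 helicase. Kinases then turn the loaded ring into a moving helicase with CDC45 and the GINS complex, primase and DNA polymerase alpha lay primers, and polymerases delta and epsilon extend them behind the sliding clamp PCNA. Many of these genes are textbook targets of the E2F transcription factors, which act as cells enter S phase. H3K4me3 is found around the starts of active and poised genes, often on both sides of a gap at the start itself. A peak therefore shows that a start carries the mark, and no RNA was measured here.

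A gene was called marked where its 5′ end ± 1000 bp was reached by at least 1 bp of a peak in each of the replicates. The replicate files list 48026 and 46950 peaks. As a check of the label, 8 of 9 erythroid marker genes were marked at the outer 5′ end, against 47.1% of all protein-coding genes. The exception, Gata1, held peaks with enrichment values of up to 21.1 and 15.0 elsewhere within its span. Of 17 markers of T cells, B cells, myeloid cells, fibroblasts and epithelium, 1 was marked, Col1a1, with values of 4.51 and 5.82. The marked erythroid genes Slc4a1 (3.97 and 4.51), Hba-a1 (5.61 and 4.25) and Hbb-bt (4.99 and 5.11) were about as low, while Klf1 had 20.7 and 21.3. With a peak anywhere in the gene span ± 1000 bp in both replicates, 9 of 9 erythroid and 8 of 17 other markers counted. Of all protein-coding genes, 57.9% met that setting. Among the other markers, Cd4 had values of up to 10.3 and 16.9. The part of other cell types in these peaks was not tested.

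The promoters printed here are examples for the motif results. They are those of 4 MCM genes and 3 further genes with E2F-type letters, and of Pcna, the gene with the highest enrichment value, which holds none. Each is the RefSeq promoter window of build GRCm38.p6 (the assembly behind mm10), 250 bases before and 50 after the annotated start, read 5′ to 3′ along the gene. Capitals mark E2F-type letters on either strand, and in Pcna alone the CCAAT box. The windows are Mcm3 chr1:20820263-20820562 (minus strand), Mcm5 chr8:75109259-75109558 (plus strand), Mcm6 chr1:128359656-128359955 (minus strand), Mcm7 chr5:138171834-138172133 (minus strand), Orc1 chr4:108579204-108579503 (plus strand), Cdt1 chr8:122567765-122568064 (plus strand), Lig1 chr7:13278576-13278875 (plus strand) and Pcna chr2:132253131-132253430 (minus strand). The Orc1 window lies 3749 bp inside the outer gene end, and the Lig1 window is that of its second RefSeq start. The main motif counts below use the Lig1 start nearest the gene end instead, whose window holds no E2F-type letters.
Mcm3: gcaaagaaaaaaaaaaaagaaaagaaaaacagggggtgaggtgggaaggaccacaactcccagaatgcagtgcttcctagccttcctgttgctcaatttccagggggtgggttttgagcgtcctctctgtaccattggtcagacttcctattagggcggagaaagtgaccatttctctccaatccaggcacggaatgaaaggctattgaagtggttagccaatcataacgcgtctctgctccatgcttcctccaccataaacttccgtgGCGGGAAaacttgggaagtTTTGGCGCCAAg
Mcm5: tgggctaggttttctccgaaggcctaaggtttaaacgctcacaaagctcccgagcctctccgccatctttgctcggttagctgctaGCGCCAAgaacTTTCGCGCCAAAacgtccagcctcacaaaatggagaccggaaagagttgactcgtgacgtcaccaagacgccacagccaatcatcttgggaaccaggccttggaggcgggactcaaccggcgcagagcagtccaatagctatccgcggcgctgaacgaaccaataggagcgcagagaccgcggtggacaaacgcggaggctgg
Mcm6: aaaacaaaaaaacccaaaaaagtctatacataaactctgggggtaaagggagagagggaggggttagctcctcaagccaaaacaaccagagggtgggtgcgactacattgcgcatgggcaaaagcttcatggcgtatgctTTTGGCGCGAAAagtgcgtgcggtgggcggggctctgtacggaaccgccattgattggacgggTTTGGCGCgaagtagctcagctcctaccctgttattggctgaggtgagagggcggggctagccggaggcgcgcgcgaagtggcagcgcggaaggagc
Mcm7: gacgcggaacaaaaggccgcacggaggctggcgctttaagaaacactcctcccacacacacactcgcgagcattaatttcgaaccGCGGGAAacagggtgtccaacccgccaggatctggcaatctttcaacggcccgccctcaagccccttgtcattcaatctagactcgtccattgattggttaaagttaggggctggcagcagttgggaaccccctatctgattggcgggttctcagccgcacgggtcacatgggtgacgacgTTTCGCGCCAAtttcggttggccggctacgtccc
Orc1: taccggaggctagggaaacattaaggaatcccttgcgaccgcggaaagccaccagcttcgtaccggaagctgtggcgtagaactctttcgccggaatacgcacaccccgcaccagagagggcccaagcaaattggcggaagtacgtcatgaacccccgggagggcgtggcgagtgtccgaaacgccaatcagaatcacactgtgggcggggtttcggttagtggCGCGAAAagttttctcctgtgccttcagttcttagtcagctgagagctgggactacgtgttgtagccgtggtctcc
Cdt1: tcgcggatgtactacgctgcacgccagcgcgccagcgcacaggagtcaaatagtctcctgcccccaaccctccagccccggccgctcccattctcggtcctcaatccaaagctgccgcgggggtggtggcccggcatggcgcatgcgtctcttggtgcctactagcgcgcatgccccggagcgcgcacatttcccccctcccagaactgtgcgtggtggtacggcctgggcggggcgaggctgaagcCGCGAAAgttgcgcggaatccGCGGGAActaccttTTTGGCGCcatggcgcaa
Lig1: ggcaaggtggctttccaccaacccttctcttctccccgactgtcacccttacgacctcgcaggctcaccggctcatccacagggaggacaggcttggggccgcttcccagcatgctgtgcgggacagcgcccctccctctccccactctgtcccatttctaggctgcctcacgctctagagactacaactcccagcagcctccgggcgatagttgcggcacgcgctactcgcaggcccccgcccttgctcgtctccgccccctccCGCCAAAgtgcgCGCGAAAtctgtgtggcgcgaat
Pcna: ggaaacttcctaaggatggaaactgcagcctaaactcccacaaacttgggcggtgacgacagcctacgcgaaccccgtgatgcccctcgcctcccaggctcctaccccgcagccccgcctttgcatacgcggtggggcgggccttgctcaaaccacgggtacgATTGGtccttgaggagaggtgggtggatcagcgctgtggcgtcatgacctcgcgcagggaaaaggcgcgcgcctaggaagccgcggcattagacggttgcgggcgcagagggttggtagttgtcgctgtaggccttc

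At the outer 5′ end, 43 of the 46 replication genes were marked in both replicates (93.5%, 95% Wilson interval 82.5 to 97.8%), against 47.1% of all protein-coding genes. The 3 exceptions were Orc1, Orc4 and Rfc1, and none of them had a peak there in either replicate. All 3 carried the mark further inside the gene, at the starts that the RefSeq promoter table lists. Counting every start in that table, 46 of 46 replication genes were marked, against 48.8% of all genes.

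Each peak has an enrichment value, the authors' own number on a scale the sources used here do not state. A gene's value is the highest among the peaks in its window. The median over the 43 marked replication genes was 14.2 as a mean of the replicates (13.8 in replicate 1 and 14.4 in replicate 2). All 10133 marked genes had medians of 13.2, 12.3 and 13.7 in the same order. Replication genes lay between 10.1 and 27.0, inside a range of 2.50 to 31.9 for all marked genes, and 30 of the 43 lay above the median of all marked genes. Of the 43, 26 fell within the interquartile range of all marked genes, 15 above it and 2 below it. By definition, marked genes as a whole lie above and below that range in equal numbers. Domain width was measured after joining peaks across gaps of at most 1000 bp. It had a median of 2323 bp, against 2258 bp for all marked genes, and 24 of the 43 were wider than that.

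**Figure D1:**
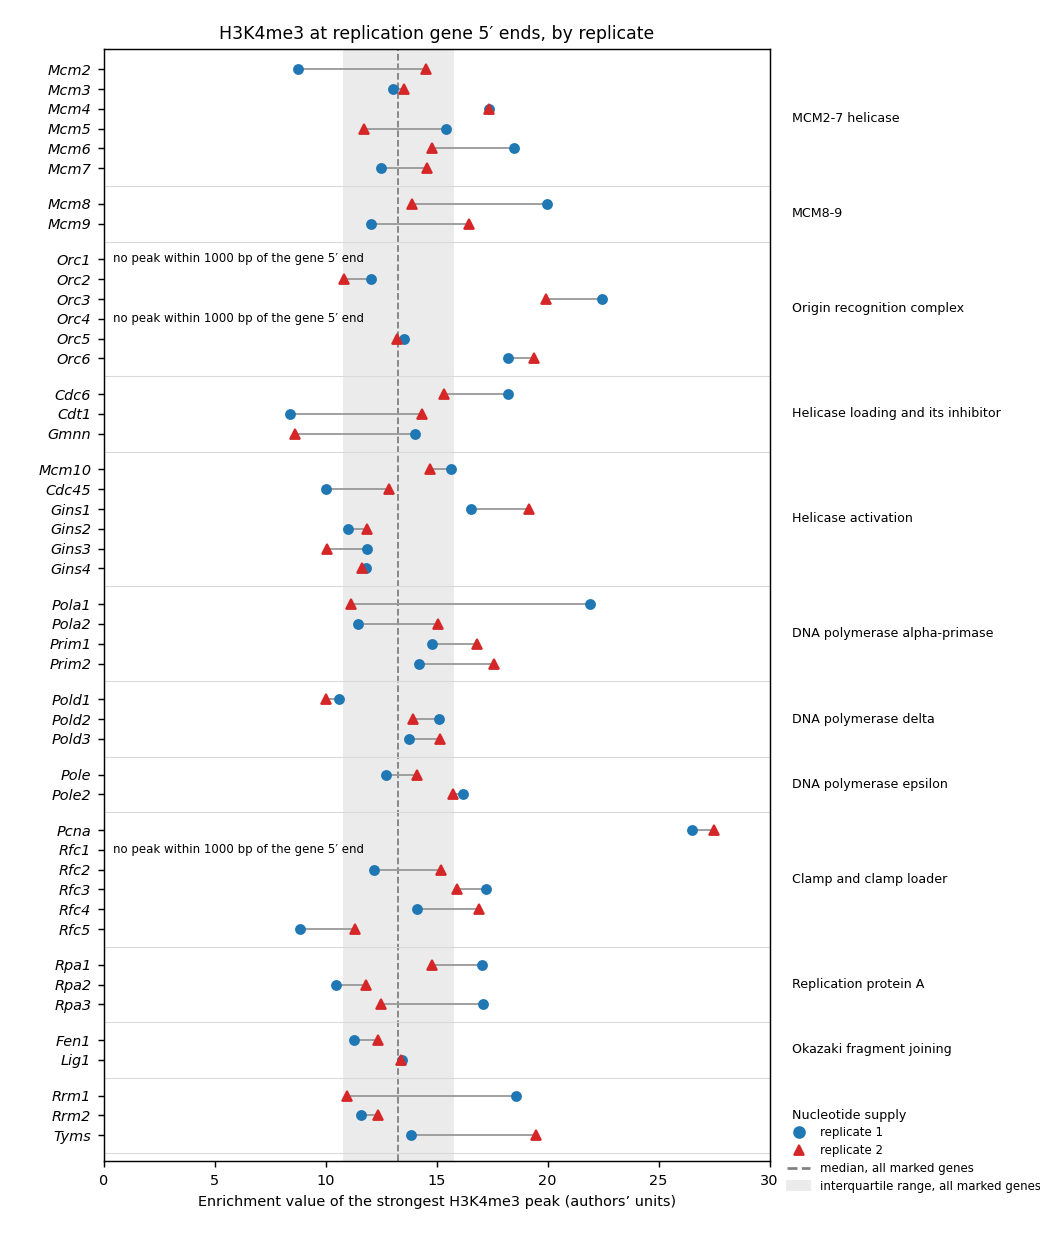
Enrichment value of the strongest H3K4me3 peak within 1000 bp of each gene's 5′ end (x axis, authors' units), with genes grouped by complex on the y axis; circles are replicate 1, triangles replicate 2, the dashed line and grey band the median and interquartile range of all 10133 marked genes. Pcna stands to the right of every other gene in both replicates, and Orc1, Orc4 and Rfc1 have no peak in the window.

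The origin recognition complex, the multi-subunit ATPase that marks where replication can begin, held both a very high member and 2 of the 3 unmarked genes. Orc3, a core subunit, had values of 22.4 and 19.9 in replicates 1 and 2 (mean 21.2 ± 1.77 SD, n = 2), the second highest of the 43 in each replicate. Its gene spans chr4:34566781-34614963 on the minus strand. Orc6, the smallest subunit, followed with 18.2 and 19.4 (18.8 ± 0.82). Orc2 was the lowest marked member in each replicate, with 12.0 and 10.8 (11.4 ± 0.87), though in the authors' pooled set, called on both libraries together, Orc5 (12.8) lay below it (13.8). Every value of Orc3 and Orc6 lay above both values of Orc2. Orc5 had a mean of 13.4.

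Orc1, the subunit whose supply varies with the cell cycle in mammalian cells, was marked at its RefSeq start chr4:108579454, where the values were 14.2 and 9.60 (11.9 ± 3.29) and the domain was 3821 and 3456 bp wide. Orc4 has 3 listed starts, all marked and all in 1 domain of 5330 and 4099 bp. The start nearest the gene end, 2668 bp inside, had 20.0 and 16.1 (18.1 ± 2.77), and those 2821 and 3635 bp inside had 22.0 and 16.1 (19.1 ± 4.15). Rfc1, the large subunit of the clamp loader, was marked 2978 bp inside, with 19.2 and 18.8 (19.0 ± 0.28) in a domain of 1724 and 1453 bp. Orc4 and Rfc1 at these starts would rank among the higher values of the group, while Orc1 would rank low.

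The loading factors CDC6 and CDT1 and their inhibitor geminin (Gmnn) were all marked, with 1 high and 2 low means. Cdc6, the ATPase that joins ORC to load the helicase, had 18.2 and 15.3 (16.8 ± 2.04). Cdt1, which brings in the MCM ring, had 8.37 and 14.4 (11.4 ± 4.23). Gmnn, which blocks CDT1, had 14.0 and 8.60 (11.3 ± 3.82). Cdt1 and Gmnn were low in opposite replicates, each differing by more than 1.5-fold between them, and their means do not differ beyond that spread.

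Cdc6 had the widest domain of the group, 6249 bp in replicate 1 and 5090 bp in replicate 2 (5669.5 ± 819.5). The breadth came from different sides. In replicate 1 the domain ran 3790 bp upstream of the 5′ end and 2458 bp downstream, and in replicate 2 it ran 669 bp upstream and 4420 bp downstream. The strong central peak was alike in both, 2333 bp wide in replicate 1 and 2441 bp in replicate 2. Weak peaks with enrichment values from 2.20 to 5.59 flanked it on both sides in both replicates, and the gaps between them fell on different sides of the joining distance.

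All 6 genes of the MCM2-7 helicase, the ring that unwinds the fork, were marked, with a median value of 13.5 and a median domain of 2665 bp. Mcm4 had the highest mean and the smallest spread, with 17.3 in each replicate (17.3 ± 0.01). Mcm6 was higher in replicate 1, and in the pooled set Mcm4 had 12.7, below Mcm6 (16.2), Mcm3 (15.0), Mcm7 (14.5) and Mcm5 (13.1). Mcm2 had the lowest mean, with 8.74 and 14.5 (11.6 ± 4.09), and its replicates differed by 1.66-fold. In replicate 2 Mcm3 and Mcm5 were lower than Mcm2. Mcm2 also had the narrowest domain of the 6, 1104 and 1503 bp (1303.5 ± 282). Mcm6 had the widest, 3384 and 3215 bp (3299.5 ± 119.5), with values of 18.5 and 14.8. The domain widths of Mcm2 and Mcm6 did not overlap between replicates, whereas the values of Mcm3, Mcm5 and Mcm7, with means from 13.3 to 13.6, overlapped.

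Mcm8 and Mcm9 form a separate helicase that acts in homologous recombination. Mcm8 had 20.0 and 13.9 (16.9 ± 4.31) and Mcm9 had 12.0 and 16.4 (14.2 ± 3.12). Their replicate values overlapped. Mcm8 had the wider domain, 2392 and 2254 bp against 1690 and 1385 bp for Mcm9.

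The factors that turn the loaded ring into an active helicase had a low median value, 11.6, and a narrow median domain, 1782 bp. Gins1, a GINS subunit, stood above the rest with 16.5 and 19.1 (17.8 ± 1.85). Gins3 had the lowest mean, with 11.9 and 10.1 (11.0 ± 1.27), but it was lowest in replicate 2 only, and in the pooled set it lay above Cdc45, Gins2 and Gins4. Gins2, Gins4 and Cdc45, the helicase cofactor, had means from 11.4 to 11.7, and Mcm10, a helicase activator, had 15.2. Gins4 had 1 of the narrowest domains of the 43 genes, 1019 and 851 bp (935 ± 119), with values of 11.8 and 11.6. The 4 GINS proteins form 1 complex in equal numbers, and both values of Gins1 lay above all 6 values of Gins2, Gins3 and Gins4.

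All 4 genes of DNA polymerase alpha-primase, which makes the primers, were marked, with a median of 15.8. Pola1, the catalytic subunit on the X chromosome, had 21.9 and 11.1 (16.5 ± 7.61). That was the largest difference between replicates in the group, 1.97-fold. Pola2, its accessory subunit, had 11.4 and 15.1 (13.2 ± 2.56). The primase genes Prim1 and Prim2 had means of 15.8 and 15.9. Prim1 had 1 of the narrowest domains, 1216 and 1241 bp (1228.5 ± 17.7), with values of 14.8 and 16.8, while Prim2 had 2446 and 2441 bp.

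Pold1, the catalytic subunit of polymerase delta, which copies the lagging strand, had 10.6 and 10.0 (10.3 ± 0.39), the second lowest mean of the 43. Pold2 had 15.1 and 13.9 (14.5 ± 0.81) and Pold3 had 13.8 and 15.1 (14.4 ± 0.98), which overlapped. Both accessory subunits thus lay above the catalytic one in each replicate. Pold1 also had a narrow domain, 886 and 986 bp (936 ± 70.7), which cannot be ordered against that of Gins4, while Pold2 had 2237 and 2171 bp.

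For polymerase epsilon, which copies the leading strand, the order depended on the peak set. Pole, the catalytic subunit, had 12.7 and 14.1 (13.4 ± 0.99). Pole2, an accessory subunit, had 16.2 and 15.8 (16.0 ± 0.31), above both values of Pole. In the pooled set the order was reversed, with 15.0 for Pole and 13.8 for Pole2. Width ran the other way, with 2966 and 2943 bp for Pole and 1516 and 1462 bp for Pole2 (1489 ± 38.2).

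The gene of the sliding clamp PCNA, which holds polymerases on DNA, had the highest enrichment value of the group. Pcna had 26.5 in replicate 1 and 27.5 in replicate 2 (27.0 ± 0.70), a mean above 99.8% of all marked genes. Its gene spans chr2:132249286-132253180 on the minus strand, and its domain was 3154 and 3753 bp wide (3453.5 ± 424). The −log10 p that the authors gave its strongest peak was also the highest of the 43 in each replicate, 123 and 125. In the authors' pooled set, however, Pcna had 16.8 and ranked 9 of 43, while Pola1 ranked first with 26.6. The top position of Pcna therefore held in the separate replicates and not in the pooled set.

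The clamp loader genes, whose products open the PCNA ring, were lower than Pcna. Rfc5 had the lowest mean of the group, 10.1 ± 1.76 from values of 8.85 and 11.3, and lay above 19.2% of marked genes. It was not the lowest in either replicate, and in the pooled set Gmnn was the lowest, with 8.04. Rfc2, Rfc3 and Rfc4 had means from 13.7 to 16.6. Every value of these 3 lay above both values of Rfc5.

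The single-strand binding complex RPA coats unwound DNA. Rpa1, its large subunit, had 17.0 and 14.8 (15.9 ± 1.61), and Rpa2 had 10.5 and 11.8 (11.1 ± 0.95), without overlap. Rpa3, the small subunit, had 17.1 and 12.5 and overlapped Rpa1.

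Okazaki fragments, the short lagging-strand pieces, are trimmed by FEN1 and sealed by DNA ligase 1. Fen1 had 11.3 and 12.4 (11.8 ± 0.76) and Lig1 had 13.4 in each replicate (13.4 ± 0.03). The outer 5′ end of Lig1, at chr7:13277175, was not inside the domain, which began 649 and 678 bp downstream. The second RefSeq start of Lig1, whose window is printed above, was covered by a peak in both replicates. In both replicates the domain also held the 5′ end of another protein-coding gene, Zswim9. The peak values there therefore cannot be assigned to Lig1 alone.

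Of the nucleotide-supply genes, Rrm1 and Rrm2 encode the subunits of ribonucleotide reductase and Tyms encodes thymidylate synthase. Tyms had 13.8 and 19.5 (16.6 ± 3.98), and Rrm2 had 11.6 and 12.4 (12.0 ± 0.56). Rrm1 had 18.6 and 11.0 (14.8 ± 5.39), so its replicates enclosed those of Rrm2. Both reductase genes had wide domains that repeated closely: 3771 and 3806 bp for Rrm1 (3788.5 ± 24.7), and 3767 and 3617 bp for Rrm2 (3692 ± 106). Tyms was narrower, with 1707 and 1713 bp.

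**Figure D2:**
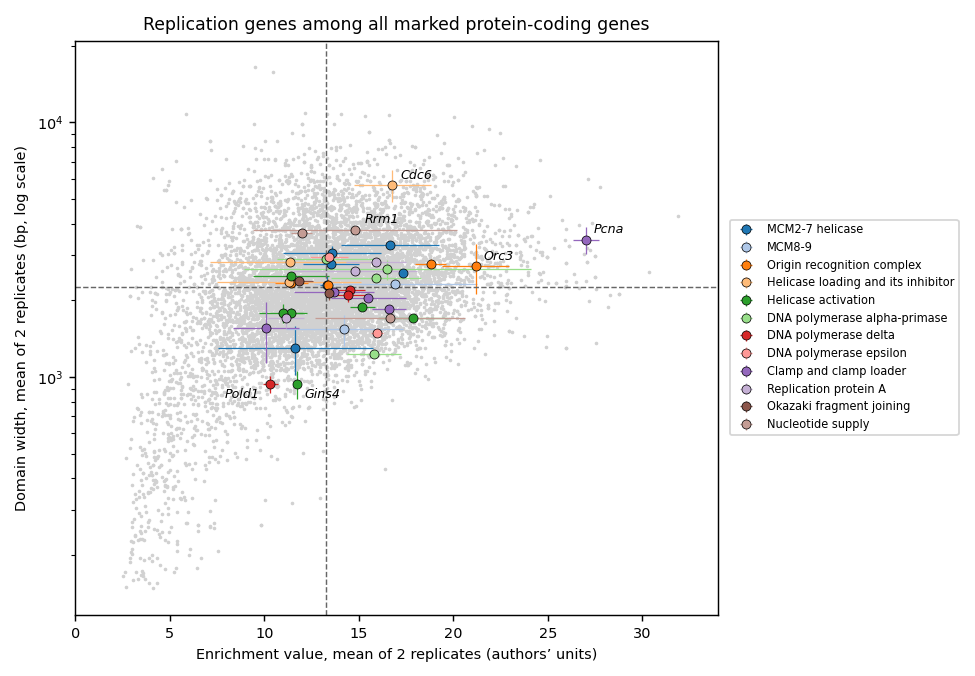
Mean enrichment value (x axis, authors' units) against mean domain width (y axis, bp, log scale) over 2 replicates; grey points are all 10133 marked protein-coding genes, coloured points the 43 marked replication genes by complex with bars of 1 SD, and dashed lines the medians of all marked genes. Replication genes lie in the body of the cloud, with Pcna and Orc3 at the right, Cdc6 at the top, and Gins4 and Pold1 at the bottom.

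The 2 replicates placed the replication genes less alike by enrichment value than by width. Values differed by more than 1.5-fold in 5 of 43 genes (Mcm2, Cdt1, Gmnn, Pola1 and Rrm1), against 22.5% of all marked genes, and no replication gene differed by more than 2-fold. Replicate 1 was higher for 20 of 43 (46.5%), against 35.9% of marked genes. Across the 43 genes, Spearman's rho between replicates was 0.425 for the value and 0.959 for the domain width, and it was 0.52 and 0.93 across all marked genes. The typical SD was 10.1% of the mean for the value and 3.79% for the width. Genes are not independent replicates, so these coefficients are descriptions of 2 libraries. The pooled value lay below both replicate values for 14 of the 43 genes, above both for 12 and between them for 17, and it lay below both in 20.6% of all marked genes.

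At the outer 5′ end of the gene, the 5′ base was uncovered in both replicates in 14 of 43 genes, against 35.7% of marked genes. It was covered by a peak in both replicates in 19 of 43 genes, against 42.5% of marked genes. Peaks flanked an uncovered 5′ base on both sides in both replicates in 8 of the 43 (18.6%), namely Mcm3, Mcm4, Mcm5, Mcm8, Cdc6, Pcna, Rpa3 and Rrm1, against 27.2% of marked genes. In Gins4, Pold1, Rfc2 and Lig1 all of the domain lay downstream of the outer 5′ end in both replicates (9.3%, against 5.72%). The other 12 differed between replicates (27.9%, against 23.3%), and 10 of those were covered in replicate 2 only. Replicate 2 covered the base in 29 genes and replicate 1 in 19, and over all marked genes in 62.1% and 44.8%. The peak summit lay downstream of the 5′ end in both replicates in 31 of 43 genes (72.1%), against 60.1% of marked genes. The domain reached further downstream than upstream in 32 (74.4%), against 76.0%. The named genes depend on the start used. At the nearest RefSeq start, chosen after seeing the data, 15 replication genes were uncovered in both replicates, with no share over all genes worked out. There Cdc6, whose RefSeq start lies 442 bp inside, was covered in both replicates, and Mcm7 and Rpa1 were flanked in both.

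Several replication genes share their promoter region with another gene that points away from them. A protein-coding gene on the other strand had its 5′ end within 1000 bp in 12 of the 46 genes (26.1%). This held for 10.8% of all protein-coding genes and for 20.7% of marked ones, which is the nearer comparison for a group that is almost all marked. The pairs were Mcm4 with Prkdc, the catalytic subunit of DNA-dependent protein kinase, Mcm7 with Ap4m1, Mcm8 with Trmt6, Orc3 with Rars2, Orc6 with Vps35, Cdc45 with Ufd1, Pole with Pxmp2, Pole2 with Klhdc1, Pcna with Cds2, Rpa1 with Smyd4, Rpa3 with Umad1, and Fen1 with Tmem258. In 6 pairs the annotated genes overlapped at their 5′ ends, by up to 476 bp for Pole2, and in the other 6 the ends stood 44 to 158 bp apart. With genes of every biotype, 17 of 46 had a partner, against 16.8% of all genes. The 5 added partners are Gm15834 (Orc2), 6030443J06Rik (Orc5), Gm10614 (Gins2), 1700001G17Rik (Prim2) and Gm15728 (Rfc5).

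In all 12 pairs the replication gene's domain also held the partner's 5′ end, so the peak values cannot be assigned to either gene. Domains at paired genes were nearly symmetric, with medians of 1266 bp upstream and 1261 bp downstream, and 6 of 12 were longer downstream. The 31 marked genes with no such partner had medians of 701.5 bp upstream and 1336 bp downstream, and 26 of 31 (83.9%) were longer downstream. All marked genes split the same way: 49.2% of those with a partner and 83.0% of those without were longer downstream. Median values were 15.9 for paired and 13.6 for unpaired replication genes, with overlapping ranges of 11.4 to 27.0 and 10.1 to 17.8. Over all marked genes these medians were 13.9 and 13.0. Median widths were 2664.5 and 2144 bp, against 2605 and 2145.75 bp over all marked genes.

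**Figure D3:**
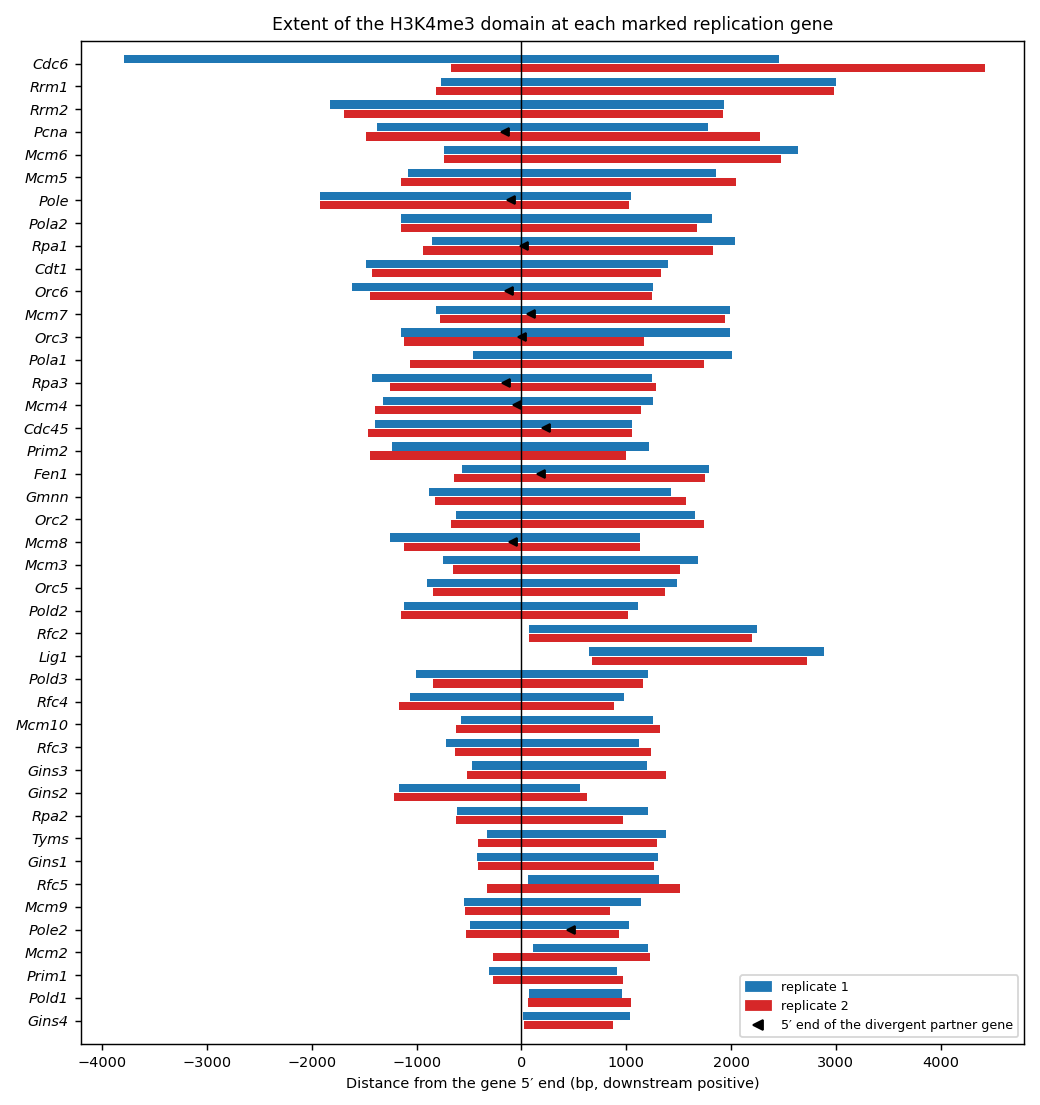
Extent of the H3K4me3 domain in base pairs upstream (negative) and downstream (positive) of the 5′ end of each of the 43 marked replication genes, ordered by width; blue bars are replicate 1, red bars replicate 2, and black triangles the 5′ end of the protein-coding partner on the other strand. Most bars are longer to the right, the bars with a triangle are more even, and in Cdc6 the replicates extend in opposite directions.

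The promoters were searched for short motifs in the window of the start nearest the gene's outer 5′ end. RefSeq windows were at hand for 38 of the 46 genes. The E2F-type letters searched on either strand were TTTCGCG and its close relative TTTGGCG, then the form TTCCCGC and finally the shifted form TTGGCGC. Some of these overlap each other, and overlapping matches counted as 1 site. Such letters occurred in 24 of 38 replication gene promoters (63.2%, 95% Wilson interval 47.3 to 76.6%), against 16.5% of 8307 marked-gene promoters and 10.9% of all 17492 promoters. At least 2 separate sites were found in 7 promoters (18.4%), namely Pola1, Rfc3 and, as printed above, Mcm3, Mcm5, Mcm6, Mcm7 and Cdt1, against 1.61% for marked genes. The median CpG count per window was 24 for replication genes, 22 for marked genes and 13 for all genes.

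The CCAAT box (CCAAT on either strand), the binding sequence of NF-Y, was found in 25 of 38 promoters (65.8%, 49.9 to 78.8%), against 39.9% of marked genes and 39.2% of all promoters. Both elements stood together in 16 (42.1%), against 7.17% of marked genes. By contrast, the GC box GGGCGG, the binding sequence of SP1, was in 73.7% of replication gene promoters and 67.4% of marked ones. The cell cycle homology region TTTGAA was in 4 promoters (10.5%, against 11.7% of marked genes), the YY1 core AAGATGG in 4 (10.5%, against 7.73%) and the NRF1-type letters GCATGCGC in 5 (13.2%, against 6.16%). For these 4 motifs the interval for replication genes included the share in marked genes.

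**Figure D4:**
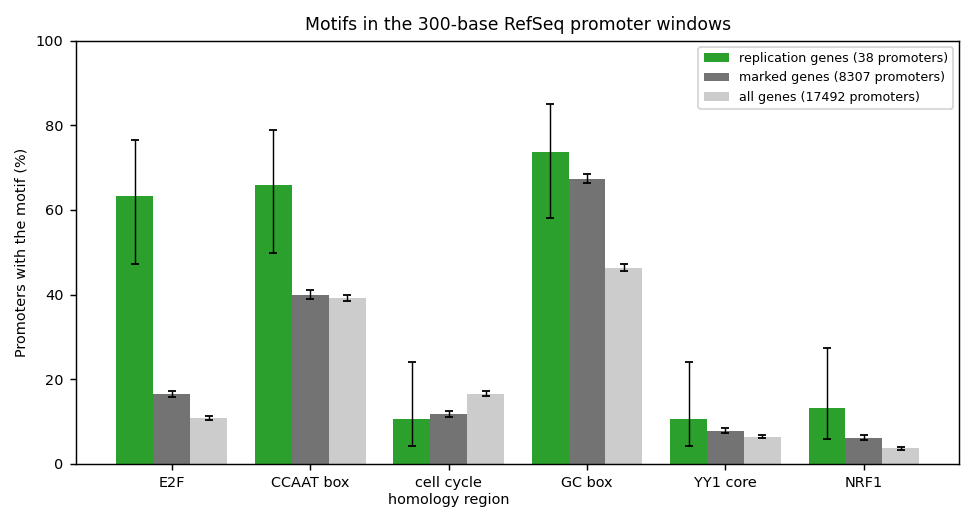
Share of 300-base promoter windows with each motif (y axis, percent, from 0) for 38 replication genes (green), 8307 marked genes (dark grey) and 17492 genes (light grey), with 95% Wilson intervals as bars. The green bars stand apart from the grey ones for E2F and the CCAAT box, and overlap the marked-gene share for the other motifs.

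E2F letters were spread over the complexes. They were in 4 of 5 MCM2-7 promoters with a window, all 3 RPA promoters, all 3 polymerase alpha-primase promoters and both promoters of Cdc6 and Cdt1. They were in 2 of 6 ORC promoters, Orc1 and Orc3. At the nearest start 14 promoters had none, among them those of Pcna, Mcm2, Rrm2, Tyms and Cdc45. Orc4 and Lig1 had E2F letters only at another of their starts. The 22 marked genes with letters had a median value of 15.0 (range 10.3 to 21.2) and a median domain of 2467.5 bp. The 13 without had 13.4 (range 10.1 to 27.0) and 2299.5 bp, so the values overlapped widely.

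The 34 E2F-type sites lay close to the annotated start. Counting from the start with upstream negative, the median of their first bases was at -12.5, against -91 in the promoters of marked genes. Of the 34, 25 (73.5%) lay no more than 100 bases upstream of the start, downstream ones included, against 53.1%. In both replicates 22 of the 34 sites (64.7%) overlapped a peak by at least 1 base, against 50.1% for marked genes. Wholly inside a peak in both were 19 (55.9%), against 48.5%, since sites of Orc3, Rpa2 and Cdt1 only reached the edge of a peak. Another 7 overlapped no peak, namely 3 of the 4 Pola1 sites, 1 of the Mcm6 sites and the single sites of Pold1, Rpa3 and Rrm1.

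**Figure D5:**
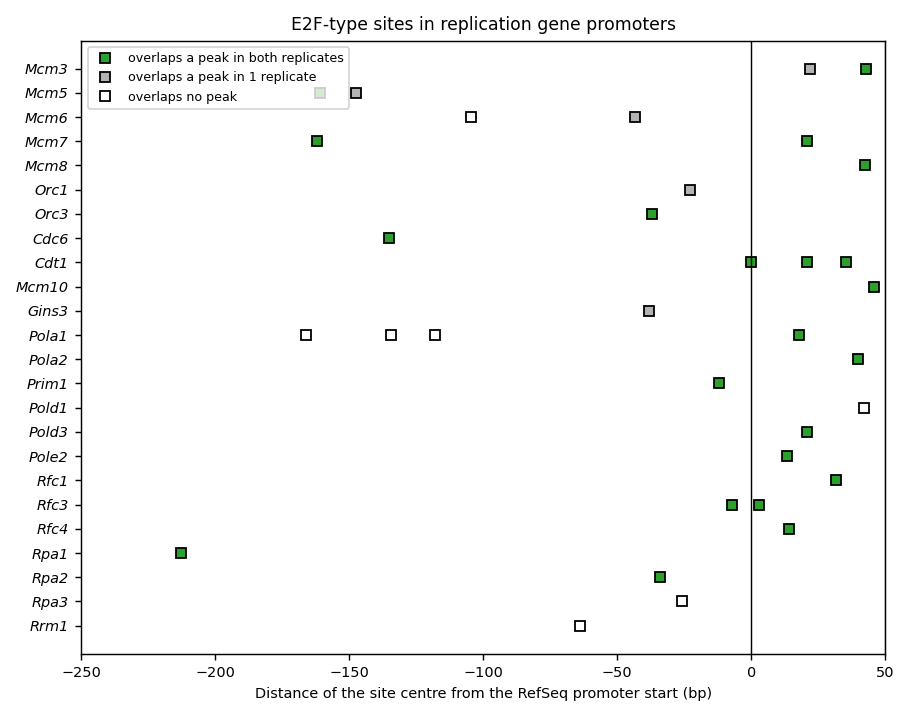
Position of each E2F-type site relative to the annotated RefSeq start (x axis, bases, start at 0) in the 24 replication gene promoters that hold one (y axis); green sites overlap a peak by at least 1 base in both replicates, grey in 1 replicate and white in none. Of 34 sites, 22 are green, and most lie near the start.

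Further genes of the pathway were taken from a list. Of 50 further replication factors, 48 were marked at the outer 5′ end, against 47.1% of all protein-coding genes. Their median value was 13.7 and their median domain 2417.75 bp, against 13.2 and 2258 bp for all marked genes. Dbf4, the activator of the CDC7 kinase, had 21.7 and 19.4 (20.6 ± 1.64). Asf1a, a histone chaperone, had 26.8 and 18.2 (22.5 ± 6.08), and Top1, a topoisomerase, had 28.0 and 16.5 (22.2 ± 8.12), with replicates wide apart. In further sublists the highest were Atrip, the partner of the checkpoint kinase ATR (19.0 ± 4.22), and Chtf8 (16.3 ± 6.87). Chtf8 belongs to an alternative clamp loader. Also highest in their sublists were Lrwd1, an ORC-binding protein (13.1 ± 0.03), and Pole4, a small polymerase epsilon subunit (11.8 ± 2.29). The 2 unmarked genes, Dctd and Dnmt1, had peaks at a RefSeq start inside the gene. E2F-type letters were in 18 of 41 promoters of these factors (43.9%), against 16.5% of marked-gene promoters and 10.9% of all promoters.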

How the data were processed

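Called H3K4me3 peaks of 2 MEL replicates were used. The authors deposited 1 peak set per replicate, a pooled set and a replicated set on mm10, and an older set on mm9, per the deposited notes. The aligner and peak caller were not given in the sources used here for any set. Each peak's enrichment value is a score given by the authors, on a scale that is not stated, and its p-value and q-value are deposited on a −log10 scale.

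Gene ends came from a RefSeq table of GRCm38.p6 and strands from RefSeq promoters or GENCODE M1. Each gene has 1 outer 5′ end, and exons, introns and transcript parts were not annotated. With 1 group no test was made: values are mean ± SD (n = 2), which takes both replicate sets to be on 1 scale, and shares have 95% Wilson intervals, which cover counting error only. Replication genes and lists were chosen with earlier results of these data known. Values are given for the highest and lowest gene of each complex, the 5 widest and 5 narrowest domains and unmarked genes, and for the other genes as ranges or selected values. Some genes outside the replication set that this choice would name are not reported here. Python 3.11.15, pandas 2.3.3, numpy 2.4.6 and scipy 1.17.1 were used, and the scripts were tested on simulated data.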

Additional observations from a re-analysis of the deposited data

How the results depend on the processing

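The number of marked replication genes stayed between 42 and 46 with a window of 500 or of 2000 bp, with peaks limited to a −log10 q of at least 2 or 5, and with the pooled and the replicated set, either replicate alone, the whole gene span, every RefSeq start (chosen after seeing the data) and the older mm9 set. It fell to 19 only where the 5′ base itself had to be covered in each replicate, which 20.0% of all genes met. That of the 63 other replication factors fell there from 59 to 23. Under the remaining settings the share of all protein-coding genes ran from 44.8% (older mm9 set) to 57.9% (whole gene span). The median value was 14.2, and it was 13.8 in the pooled and in the replicated set, 12.0 as the mean of the peaks in the window, and 13.8 to 14.4 with 1 replicate left out. The median width was 2323 bp, against 2258 bp for all marked genes. It was 2254 to 2353 bp with 1 replicate left out and 2254 to 2380 bp under 10 alternatives. With no joining of peaks it was 1519 bp, against 1413 bp for all marked genes. With peaks joined across a wider gap than the main 1000 bp, the order was reversed, at 2375.5 bp against 2448.5 bp. Under every other setting with a width, the replication genes had the larger median. Partner counts ranged from 12 to 17, against 9.2% to 16.8% of all genes. E2F-type letters were counted under 2 alternatives chosen after seeing the data. With starts within 1000 bp of the gene end they were in 22 of 35 promoters (62.9%), against 11.0% of all genes. With any promoter window they were in 26 of 38 genes (68.4%), against 12.2%. No paired analysis was possible because there is 1 group. Without read counts, depth limits every statement on a missing peak.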

Other observations

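The translesion and repair polymerases copy past damage or fill repair gaps and were listed apart from the replication factors above. Of these 13 genes, 11 carried the mark, with a median domain of 3181.5 bp and a median value of 14.6. The marked share over the whole protein-coding set was 47.1%. Medians over the 10133 marked genes were 2258 bp and 13.2. Primpol, a primase-polymerase that restarts stalled forks, had the highest mean, with 16.6 and 20.8 (18.7 ± 2.97 SD, n = 2). Poli and Mad2l2 were unmarked at the outer 5′ end. Poli held peaks of up to 17.7 and 14.8 elsewhere in its gene, and Mad2l2 of up to 15.9 and 15.1. Polg, the mitochondrial DNA polymerase, had the lowest values of the marked factors at its outer end, 3.75 and 6.02, while the strongest peak within its gene had 13.9 and 19.8. E2F-type letters were in 4 of 9 promoters of these polymerases (44.4%), against 16.5% of marked-gene promoters and 10.9% of all promoters.

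Top2a, the topoisomerase that untangles sister chromatids and is made mainly in dividing cells, differed most between replicates among the 59 marked factors, with 27.4 and 7.77 (3.52-fold). It was chosen after its values were seen. Its domain width differed little, 2552 ± 127 bp.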
